A study of Arabidopsis thaliana with 24 samples.

Results

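Tau class glutathione transferases were followed in shoots of Arabidopsis thaliana plants that make too much flavonoid or none. The 5 genes are GSTU16 (AT1G59700), GSTU18 (AT1G10360), GSTU20 (AT1G78370), GSTU26 (AT1G17190) and GSTU27 (AT3G43800), each taken by its symbol where the platform annotation gives a probe set to that gene alone. Each has 1 such probe set, so they are 5 of the 13513 probe sets with 1 gene name. The rule itself goes by name, although earlier results of these data were known when the genes were chosen. The 5 are also the only tau class genes with such a probe set whose signals were high enough to be tested.

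Glutathione transferases join the tripeptide glutathione to reactive molecules, which marks these for storage in the vacuole or for breakdown. The tau class is a large family of soluble plant enzymes known for detoxifying herbicides, and several members also bind flavonoids and other small ligands without converting them. A phi class relative, TT19, is needed to bring anthocyanins to the vacuole. GSTU20 is also known as FIP1, a partner of the enzyme FIN219 (JAR1) that makes the active jasmonate, and has been placed in the synthesis of aliphatic glucosinolates.

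The 24 ATH1 arrays measured RNA from aerial parts of 3-week-old plants, with 3 arrays for each of 8 genotypes in the Col-0 background. MYB12OX/tt4 and pap1-D/tt4 overexpress the flavonol regulator MYB12 or the anthocyanin regulator MYB75/PAP1 and, like the single mutant tt4, have a mutant chalcone synthase gene (CHS), which codes for the first enzyme of flavonoid synthesis. WOX1-2 and WOX1-1 come from crosses of MYB12OX with pap1-D, and pap1-D and MYB12OX overexpress 1 regulator each with CHS intact. Col-0 is the wild type. Per the labels the overexpressors and all crosses are homozygous, while that word is not given for tt4. The sources used here do not give the promoter behind each overexpressed regulator, the number of lines per genotype, or whether the 3 arrays come from separate plants, pools or plates. Each p-value thus measures the spread between these arrays, some of which may be technical. The growth protocol shared by all arrays also mentions a drought experiment, and no label ties an array to it.

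Values are MAS5 signals, which are array intensities on a linear scale. Differences are in log2(signal + 42.6), from 1 limma fit of all 24 arrays over 14935 probe sets, and a gene was called changed at an adjusted p under 0.05. DFR, an anthocyanin enzyme that PAP1 induces, had signals of 1952 to 2930 on the 12 arrays of genotypes with pap1-D and of 8.78 to 73.6 on the 12 without, as labelled. Of the leaf markers, RCA (18031 to 27159) and PORB (11494 to 20911) were above the floor of 85.2 on 24 of 24 arrays. Of the root markers, PYK10 was above it on all 24 (1140 to 2635), EXPA18 on 1 and EXPA7 on 0. Of the flower and anther markers, ROXY2 passed it on 14 arrays, ATA27 on 6, ROXY1 on 2 and AMS on 0. The 12 seed markers had no single-gene probe set.

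Array profiles followed the listing of the samples, from Col-0 to tt4. The first principal component held 34.5% of the variance, with a mean score of 12.6 in MYB12OX/tt4, 19.1 in pap1-D/tt4, 21.1 in tt4, 5.3 in WOX1-2, -3.75 in WOX1-1, -10.7 in pap1-D, -18.2 in MYB12OX and -25.4 in Col-0. Col-0, MYB12OX, pap1-D, WOX1-1, WOX1-2, MYB12OX/tt4, pap1-D/tt4 and tt4 is also the order of the listing, with the 3 arrays of a genotype next to each other. Listing order and genotype can therefore not be told apart between genotypes. Within every genotype the score on this component also rose from replicate 1 to 3, which is the listing order there. In Col-0 it was -28.8, -25.4 and -22.1, and in tt4 19.5, 21.2 and 22.7. A fit with listing place as a covariate takes its trend only from arrays of the same genotype. It extends a trend seen over 3 neighbouring arrays across as many as 21 places, the distance from Col-0 to tt4. Its differences therefore have wider standard errors, and a changed sign in it is not a measured reversal. That trend was called for 655 of the 14935 probe sets. Of the 18 differences called for the 5 genes among 60, that fit called 0, and 8 of the 18, all of GSTU18 and GSTU20, took the other sign. Its values are given below for these 18 differences and, for other named genes, wherever the direction of a call turned.

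GSTU20 was lowest in the 3 genotypes without functional CHS. Its signals were 1491, 1481 and 1054 in MYB12OX/tt4, 1017, 1463 and 779 in pap1-D/tt4 and 902, 754 and 755 in tt4. They were 2246, 1574 and 1842 in WOX1-2, 1928, 1551 and 1798 in WOX1-1, 2141, 1884 and 1893 in pap1-D, 2999.5, 2284 and 1903 in MYB12OX and 1878, 2933 and 1761 in Col-0. All 9 arrays without CHS, with a median of 1017 and a highest value of 1491, lay below all 15 arrays with CHS, with a lowest value of 1551 and a median of 1893. That comparison of 9 with 15 arrays was made after the values were seen, and 0.703% of the tested probe sets have such a gap in this direction. The 9 arrays are also the last 9 in the listing.

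In tt4 the GSTU20 signal averaged 804 ± 85.1, against 2191 ± 646 in Col-0 (SD, n = 3 each), a difference of -1.37 ± 0.20 (log2, SE, adjusted p = 1.62e-05). Loss of CHS went with a difference of -0.81 ± 0.20 in MYB12OX/tt4 against MYB12OX (adjusted p = 0.00776) and of -0.88 ± 0.20 in pap1-D/tt4 against pap1-D (adjusted p = 0.00401). GSTU20 thus fell in each of the 3 comparisons that remove CHS, with no overlap between the arrays of a pair. The share of all probe sets without overlap between 3 and 3 arrays was not computed, for this or any gap below. With listing place as a covariate the 3 differences were 1.76, 0.98 and 0.91, and none was called (adjusted p = 0.511, 0.55 and 0.584). The trend in that fit was -0.149 ± 0.0541 log2 per place (adjusted p = 0.12), so it adds back more than the whole difference over the 21 places between tt4 and Col-0. The second pair also rested on single arrays: the MYB12OX/tt4 difference was -0.64 without MYB12OX replicate 1 (adjusted p = 0.0636) and -0.65 without MYB12OX/tt4 replicate 3 (adjusted p = 0.0633). In bulk tissue, fewer cells that express a gene and less of its RNA per cell cannot be told apart.

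**Figure D1:**
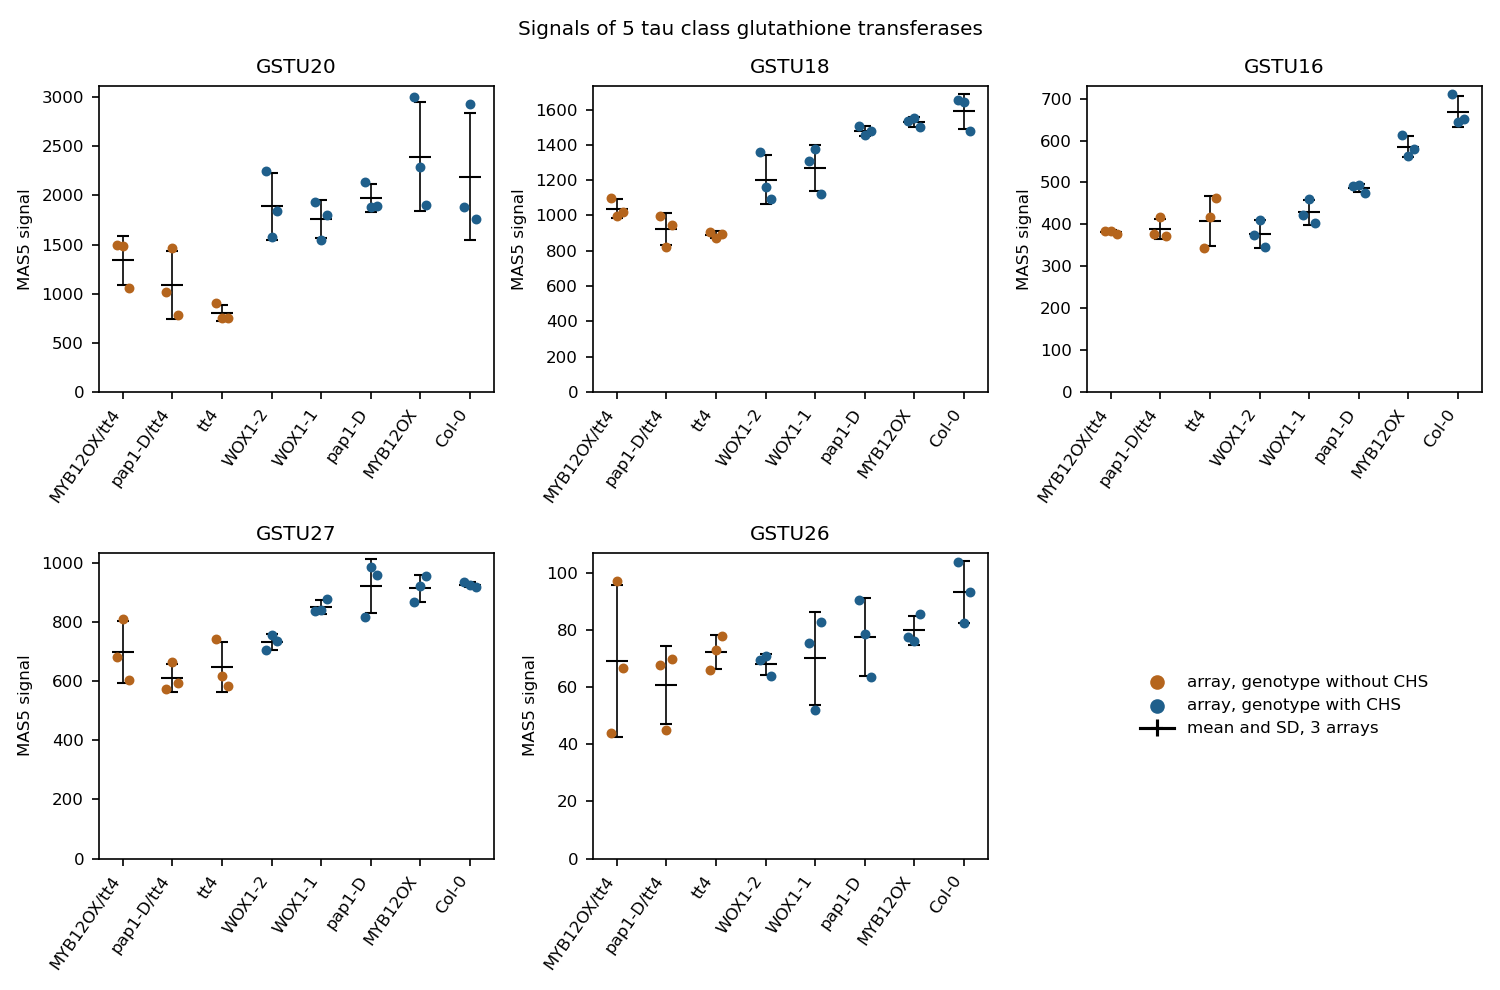
MAS5 signals (linear scale, from 0) of the 5 tau class genes in the 8 genotypes, with 1 dot per array. Brown dots are genotypes without CHS, blue dots genotypes with CHS, and black marks are the mean and SD of 3 arrays. All brown dots of GSTU20 (754 to 1491) lie below its blue dots (1551 to 2999.5), while GSTU16 steps down from Col-0 through MYB12OX and pap1-D.

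No overexpressor with CHS intact differed from Col-0 in GSTU20 by the test. Its difference was -0.19 in WOX1-2, -0.28 in WOX1-1, -0.11 in pap1-D and 0.14 in MYB12OX, each with an SE of 0.20 (adjusted p = 0.56, 0.405, 0.791 and 0.857). The spread in Col-0 was wide, since Col-0 replicate 2 was at 2933 and the others at 1878 and 1761, and MYB12OX replicate 1 at 2999.5 stood above its group. On the log2 scale the interval of the WOX1-1 difference ran from -0.70 to 0.14, so a moderate fall is within it. Among plants without CHS, MYB12OX/tt4 averaged 1342 ± 249.7 and tt4 804 ± 85.1 (SD, n = 3 each), a log2 difference of 0.70 with an interval from 0.28 to 1.12 that did not pass the adjustment (adjusted p = 0.164). The 3 arrays of MYB12OX/tt4 all lay above the 3 of tt4. The pap1-D/tt4 arrays overlapped those of tt4 (0.38, adjusted p = 0.934). Whether a regulator acts differently without CHS was tested as an interaction, with 0.56 for MYB12OX (adjusted p = 0.506) and 0.49 for pap1-D (adjusted p = 0.48).

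In GSTU20 the genotypes ran, from high to low, MYB12OX, Col-0, pap1-D, WOX1-2, WOX1-1, MYB12OX/tt4, pap1-D/tt4 and tt4. Arrays of neighbours in that order overlapped except between WOX1-1 and MYB12OX/tt4, the step between plants with and without CHS.

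GSTU18, the gene next to GSTU17 in the genome, was lower without CHS with far less spread between arrays. Its signals were 1099, 996 and 1021 in MYB12OX/tt4, 997, 820.4 and 946 in pap1-D/tt4 and 907, 871 and 895 in tt4. The crosses of both regulators had 1358, 1159 and 1091 in WOX1-2 and 1307, 1377 and 1121 in WOX1-1. The single overexpressors had 1509, 1453 and 1477 in pap1-D and 1533, 1554 and 1502 in MYB12OX, and Col-0 had 1653, 1643 and 1476. Only 2 arrays kept the plants with and without CHS from separating, MYB12OX/tt4 replicate 1 at 1099 and WOX1-2 replicate 3 at 1091. The order was Col-0, MYB12OX, pap1-D, WOX1-1, WOX1-2, MYB12OX/tt4, pap1-D/tt4 and tt4, which is the order of the listing, and between neighbours the arrays separated only at the step from pap1-D to WOX1-1.

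The GSTU18 signal averaged 891 ± 18.4 in tt4, against 1591 ± 99.1 in Col-0 (SD, n = 3 each). That is a difference of -0.80 ± 0.083 (log2, SE, adjusted p = 1.35e-07). GSTU18 also fell in MYB12OX/tt4 against MYB12OX (-0.54, adjusted p = 8.11e-05) and in pap1-D/tt4 against pap1-D (-0.66, adjusted p = 8.58e-06). With CHS intact it fell in WOX1-2 (-0.40, adjusted p = 0.00114) against Col-0. In WOX1-1 the change was -0.32 (adjusted p = 0.00923). The WOX1-1 call was lost in a fit of only WOX1-1 and Col-0 (adjusted p = 0.0504) and without WOX1-1 replicate 3 (-0.24, adjusted p = 0.0787). For the single overexpressors the differences from Col-0 were -0.1 in pap1-D (adjusted p = 0.507) and -0.053 in MYB12OX (adjusted p = 0.865). The listing covariate turned the 5 called differences to 0.41, 0.16, 0.033, 0.30 and 0.20 in the order given here, all of the other sign and not called, beside a trend of -0.0581 ± 0.0222 log2 per place (adjusted p = 0.142).

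GSTU16 was highest in Col-0 and fell not only in tt4 but also in WOX1-2, WOX1-1 and pap1-D, which have CHS. Its signals were 385, 384 and 378 in MYB12OX/tt4, 376, 418 and 373 in pap1-D/tt4 and 343, 417 and 463 in tt4. They were 375, 411 and 346 in WOX1-2 and 422, 461 and 404 in WOX1-1, overlapping the plants without CHS. The single overexpressors lay between, at 491, 494 and 475 in pap1-D and 614, 563 and 579.5 in MYB12OX, with 712, 644 and 652 in Col-0. From Col-0 to MYB12OX, to pap1-D and to WOX1-1 each step down separated all arrays, while below WOX1-1 the arrays of neighbours (tt4, pap1-D/tt4, MYB12OX/tt4 and WOX1-2) overlapped. The genotypes were ordered by these same values, and the share of all probe sets with such steps was not computed.

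The GSTU16 difference from Col-0 was -0.67 ± 0.085 in tt4 (log2, SE, adjusted p = 2.26e-06), -0.76 in WOX1-2 (adjusted p = 8.58e-07), -0.59 in WOX1-1 (adjusted p = 3.65e-05) and -0.43 in pap1-D (adjusted p = 0.00234). In MYB12OX it was -0.18 and was not called (adjusted p = 0.382), with all 3 MYB12OX arrays below the 3 of Col-0. Loss of CHS went with -0.56 in MYB12OX/tt4 against MYB12OX (adjusted p = 6.92e-05). In pap1-D/tt4 against pap1-D it went with -0.30 (adjusted p = 0.0173), a call that was lost without pap1-D replicate 1 (adjusted p = 0.0568), without pap1-D/tt4 replicate 1 (adjusted p = 0.0514) or without pap1-D/tt4 replicate 3 (adjusted p = 0.0683), and in a fit of only these genotypes (adjusted p = 0.0557). The interaction of pap1-D with tt4 was 0.37, with an interval from 0.12 to 0.62 that did not pass the adjustment (adjusted p = 0.136). With listing place as a covariate the tt4 difference was -0.60, close to that without the covariate, but its adjusted p was 0.685. The other 5 called differences kept their sign, with -0.72 for WOX1-2, -0.56 for WOX1-1 and -0.41 for pap1-D against Col-0 and -0.52 and -0.26 for the loss of CHS, none called. The trend was -0.0033 ± 0.0263 log2 per place.

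GSTU27 also fell without CHS. Its signals were 683, 811 and 604 in MYB12OX/tt4, 573, 666 and 595 in pap1-D/tt4 and 743, 617 and 583 in tt4. They were 704, 757 and 738 in WOX1-2, 836, 839 and 878 in WOX1-1, 818, 987 and 961 in pap1-D, 867, 921 and 957 in MYB12OX and 935, 926 and 920.0 in Col-0. The 4 genotypes Col-0, pap1-D, MYB12OX and WOX1-1 were the highest, each overlapping the next, and all arrays of WOX1-1 lay above those of WOX1-2. WOX1-2, MYB12OX/tt4, tt4 and pap1-D/tt4 followed, again with overlap between neighbours.

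The GSTU27 difference from Col-0 was -0.50 ± 0.094 in tt4 (log2, SE, adjusted p = 2.44e-04) and -0.32 in WOX1-2 (adjusted p = 0.0148). The WOX1-2 call was lost without WOX1-2 replicate 1 (adjusted p = 0.0545). In WOX1-1, pap1-D and MYB12OX the differences were -0.12, -0.012 and -0.019, none called (adjusted p = 0.453, 0.958 and 0.965). GSTU27 fell in pap1-D/tt4 against pap1-D (-0.56, adjusted p = 2.45e-04). It also fell in MYB12OX/tt4 against MYB12OX (-0.38, adjusted p = 0.00733), a call lost without MYB12OX/tt4 replicate 3 (adjusted p = 0.068). The listing covariate left the sizes near the same (-0.53 in tt4 and -0.34 in WOX1-2 against Col-0, -0.58 and -0.40 for the loss of CHS) without a call.

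GSTU26 was dim, above the floor on 5 of 24 arrays, and no comparison called it. It had 44, 97.2 and 66.8 in MYB12OX/tt4, 67.8, 45 and 69.9 in pap1-D/tt4 and 66.2, 73.3 and 77.9 in tt4. It had 69.6, 70.9 and 64 in WOX1-2, 75.5, 52 and 83.1 in WOX1-1, 90.9, 78.8 and 63.6 in pap1-D, 77.8, 76.5 and 85.9 in MYB12OX and 104, 82.7 and 93.7 in Col-0. Arrays of neighbouring genotypes overlapped throughout. The tt4 difference was -0.24 ± 0.15 (log2, SE, adjusted p = 0.238), with an interval from -0.56 to 0.08. It passed the low-signal filter through 2 arrays of Col-0 and 1 each of MYB12OX/tt4, pap1-D and MYB12OX. The other 4 genes were above the floor on 24 of 24 arrays.

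**Figure D2:**
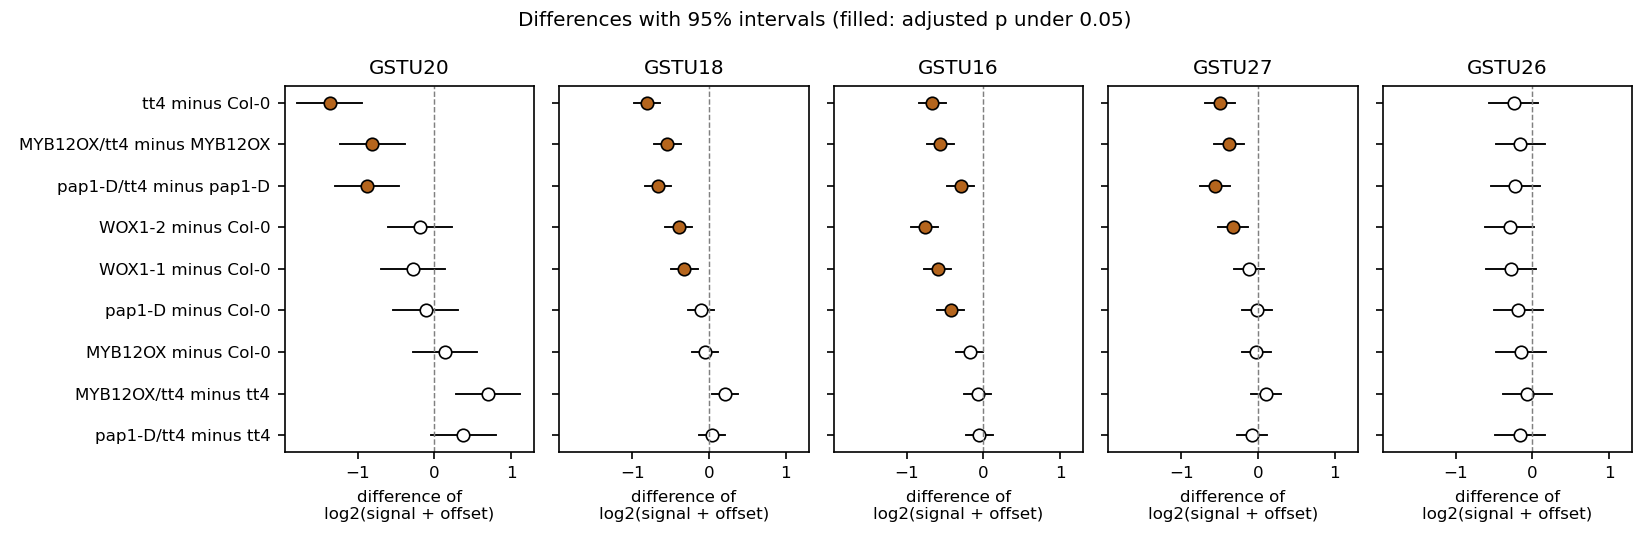
Differences in log2(signal + 42.6) of each of the 5 genes, with 95% intervals from the limma fit. Comparisons are with Col-0, between plants with and without CHS, and of MYB12OX/tt4 and pap1-D/tt4 with tt4. Filled points have an adjusted p under 0.05. The tt4 differences from Col-0 are -1.37 for GSTU20, -0.80 for GSTU18, -0.67 for GSTU16 and -0.50 for GSTU27, and the MYB12OX differences run from -0.18 for GSTU16 to 0.14 for GSTU20.

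Set against all probe sets, 4 of the 5 genes were called lower in tt4 against Col-0, where 36.5% of the 14935 probe sets were called and 17.2% were called lower. The median of the 5 was -0.67 and that of all probe sets 0.014. MYB12OX/tt4 against MYB12OX had 4 of 5 lower, beside 17.4% called and 8.23% called lower in all, with medians of -0.54 and 0.018. For pap1-D/tt4 against pap1-D it was 4 of 5 lower, beside 18.9% called and 8.84% called lower, with medians of -0.56 and 0.038. In all 3 the gene not called was GSTU26. These 3 comparisons share no arrays, but in each the plants without CHS stand later in the listing, and they share 1 estimate of the spread.

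With CHS intact fewer were called. In WOX1-2 against Col-0, GSTU16, GSTU18 and GSTU27 were lower, beside 23.1% of all probe sets called and 12.1% called lower. WOX1-1 had GSTU16 and GSTU18 lower, beside 16.8% called and 9.09% called lower. In pap1-D only GSTU16 was lower, beside 10.1% called and 5.03% called lower, and in MYB12OX 0 of 5 were called by limma, beside 1.00% of all probe sets. Of the 5, GSTU16 alone had an unadjusted limma p under 0.05 in MYB12OX, where 1908 probe sets did. These 4 comparisons and that of tt4 share the 3 Col-0 arrays. Both crossed lines can be set against each other: 0 probe sets of 14935 (0%) were called by limma between WOX1-2 and WOX1-1, with 1242 at an unadjusted p under 0.05, and the differences of the 5 genes ran from -0.20 for GSTU27 to 0.09 for GSTU20. That count was 12 with the replicate number as a block and 11 with array weights.

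Without CHS the regulators moved none of the 5 by the test. In MYB12OX/tt4 against tt4 the differences were 0.70 for GSTU20, 0.21 for GSTU18, 0.10 for GSTU27, -0.075 for GSTU16 and -0.066 for GSTU26, beside 0.187% of probe sets called (28, or 97 with the replicate number as a block). In pap1-D/tt4 against tt4 they ran from -0.16 for GSTU26 to 0.38 for GSTU20, beside 0.147% called. No interaction was called for the 5 genes either, where 0.268% of probe sets were called for MYB12OX with tt4 and 1.17% for pap1-D with tt4. The MYB12OX interaction ran from 0.082 for GSTU26 to 0.56 for GSTU20, with 0.26 for GSTU18 (interval from 0.021 to 0.51).

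**Figure D3:**
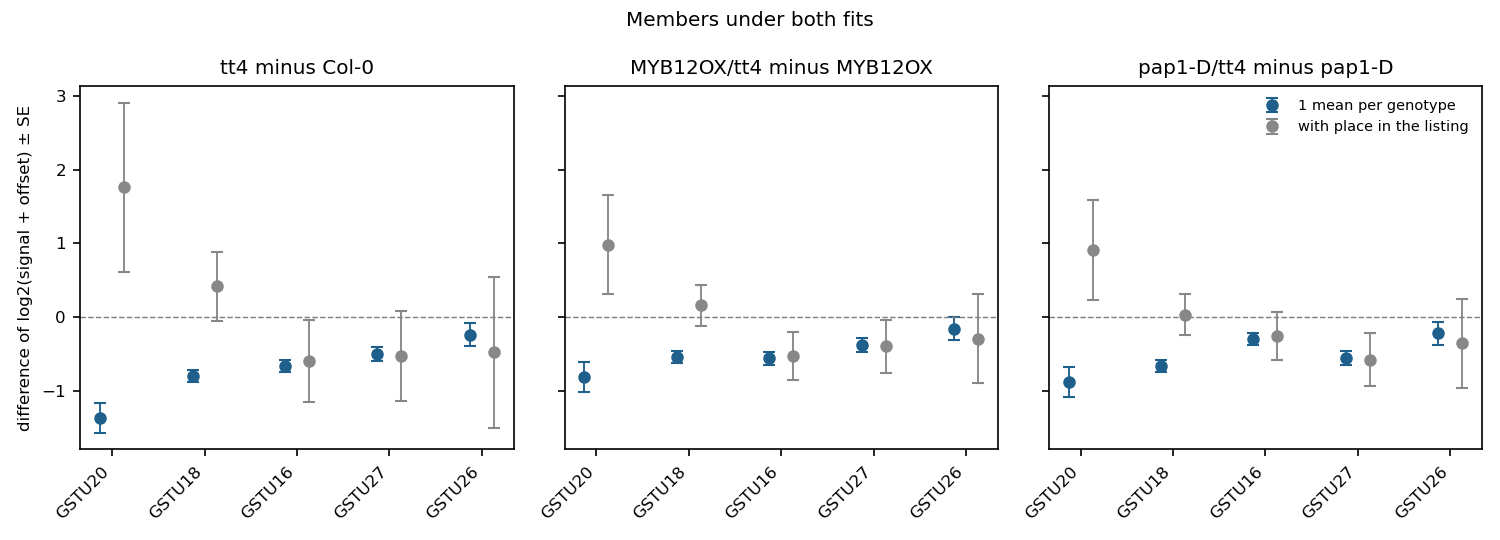
Differences in log2(signal + 42.6) of the 5 genes without and with the listing place of the array as a covariate, with bars of ± SE. The bars are wider with the covariate. The tt4 differences from Col-0 of GSTU20 and GSTU18 are -1.37 and -0.80 without it and 1.76 and 0.41 with it, while that of GSTU16 is -0.67 without it and -0.60 with it.

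Most of the rest of the tau class could not be followed through single-gene probe sets or was dim. Probe sets that the annotation gives to several genes or to none were not searched for the others. Of the 28 tau class genes listed, 11 had a single-gene probe set, and the 5 described above were the tested ones. GSTU15, GSTU21, GSTU25 and GSTU28 were above the floor on 0 of 24 arrays. GSTU22 was above it on 1, at 94.5. GSTU23 was above it on 2, both of Col-0, with 91, 71.5 and 122 in Col-0 and a highest value of 69 elsewhere. Several tau genes lie side by side in the genome: GSTU20 sits between GSTU21 and GSTU19, GSTU26 follows GSTU24 and GSTU25, and GSTU18 has GSTU17 (named ERD9, for early response to dehydration) as its next gene. Such relatives are alike in sequence, and whether a probe set also picks up RNA of a relative was not tested.

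Near GSTU16 the next gene moved the other way. AT1G59710 averaged 499 ± 27.6 in MYB12OX/tt4, 535 ± 4.72 in pap1-D/tt4, 494 ± 53 in tt4, 529.8 ± 60.2 in WOX1-2, 457 ± 93.8 in WOX1-1, 319.6 ± 32.8 in pap1-D, 261 ± 30.6 in MYB12OX and 211 ± 37 in Col-0 (SD, n = 3 each). It was called higher in the 6 comparisons in which GSTU16 was called lower, from 0.52 in pap1-D (adjusted p = 0.00801) to 1.18 in WOX1-2 (adjusted p = 3.52e-07), with 1.09 in tt4 (adjusted p = 4.39e-07). Its tt4 value was 0.74 with the listing covariate (adjusted p = 0.73). The gene after it, CRR28, which acts in RNA editing for the chloroplast NDH complex, fell in tt4 (-0.63) and WOX1-2 (-0.70) against Col-0 and in MYB12OX/tt4 against MYB12OX (-0.40, adjusted p = 0.0491). Around GSTU18, AT1G10350 (-0.32) and AT1G10380 (-0.55) fell in tt4 and AT1G10340 was higher (0.64, adjusted p = 0.0335). AT1G10380 also fell in WOX1-2 (-0.37). Leaving out 1 array at a time lost none of the 6 calls of AT1G59710, but it lost that of CRR28 in MYB12OX/tt4 with 5 of 6 arrays, that of AT1G10340 with 4, that of AT1G10350 with 3 and that of AT1G10380 in WOX1-2 with 2. The listing covariate turned the tt4 differences of AT1G10340 and AT1G10350 to -2.48 and 1.06, and none of the calls of these neighbours remained with it.

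Few of the genes that supply and recycle glutathione could be followed by name. The annotation used gives no gene to 8730 probe sets, and these were not searched for genes of the lists. In the list of glutathione synthesis and reduction, 2 of 13 genes had a probe set with 1 gene name, both of them glutathione reductases, which turn oxidised glutathione back to its reduced form. The plastid and mitochondrial enzyme GR averaged 1949 ± 297 in tt4, against 2656 ± 209.7 in Col-0 (SD, n = 3 each), a difference of -0.45 ± 0.092 (log2, SE, adjusted p = 5.81e-04). The cytosolic enzyme GR1 averaged 580.3 ± 65.3 in tt4, against 829 ± 68.1 in Col-0, a difference of -0.49 ± 0.12 (adjusted p = 0.00223). Both were also called lower in WOX1-2 (-0.33 and -0.37), GR in MYB12OX/tt4 against MYB12OX (-0.39) and GR1 in pap1-D/tt4 against pap1-D (-0.40). Both WOX1-2 calls were lost on leaving out single arrays (2 of 6 for GR and 3 of 6 for GR1), as was that of GR1 in pap1-D/tt4 (2 of 6). Adding the listing place turned the tt4 values to 1.01 and 0.27, of the other sign and not called (adjusted p = 0.358 and 0.915). The differences in WOX1-2, 0.50 and 0.061, that of GR in MYB12OX/tt4, 0.45, and that of GR1 in pap1-D/tt4, 0.038, turned too.

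**Figure D4:**
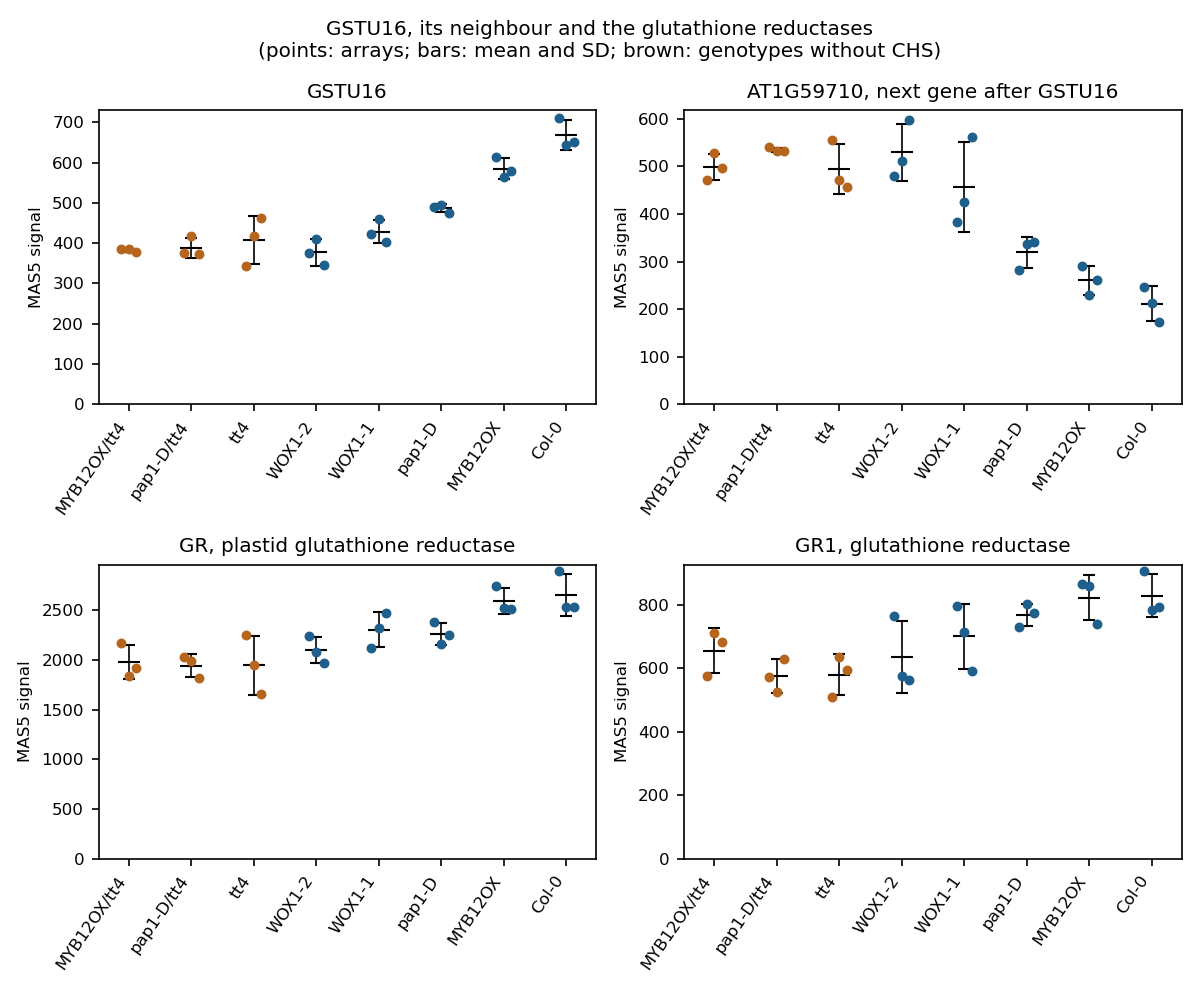
MAS5 signals (linear scale, from 0) of GSTU16, of its next gene AT1G59710 and of the glutathione reductases GR and GR1 in the 8 genotypes, with 1 dot per array. Brown dots are genotypes without CHS, blue dots genotypes with CHS, and black marks are the mean and SD of 3 arrays. AT1G59710 averages 494 in tt4 and 211 in Col-0.

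Other lists held few genes with a tested single-gene probe set. Of 25 genes of other transferase classes, 2 were tested. The phi class gene GSTF4 was higher in WOX1-1 (0.51, adjusted p = 0.0173), and the lambda class gene GSTL3 passed no test (-0.17 in tt4, adjusted p = 0.0754). Of 37 genes of sulfate assimilation, which supplies the sulfur of glutathione, 3 were tested. APS3, an ATP sulfurylase, was higher in pap1-D (0.59, adjusted p = 0.0115) and WOX1-1 (0.51, adjusted p = 0.0186), and APS4 and SIR passed no test. The jasmonate list had 3 of 15 genes tested. ORA47, a regulator of jasmonate synthesis, fell in tt4 against Col-0 (-1.41) and in pap1-D/tt4 against pap1-D (-1.38), where the defensin genes PDF1.2 (2.21) and PDF1.2b (2.84) were higher. With the listing covariate none of these calls remained, and the ORA47 differences turned to 4.58 in tt4 and 2.05 in pap1-D/tt4. Leaving out single arrays lost each of them with 1 to 4 of 6 arrays, except that of ORA47 in tt4. The lists of glutathione turnover, glutathione peroxidases and conjugate transport had no probe set with 1 gene name. In the anthocyanin list, 5 of 12 genes were tested, with 4 higher in pap1-D and 1 lower in tt4 against Col-0. In the other comparisons that remove CHS, 3 of the 5 were lower in pap1-D/tt4 against pap1-D and 1 in MYB12OX/tt4 against MYB12OX.

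Of the 12 leaf markers 2 were tested, and both fell with the loss of CHS. RCA, which activates Rubisco, and PORB, an enzyme of chlorophyll synthesis, were both called lower in tt4 against Col-0 (-0.23 and -0.44), in MYB12OX/tt4 against MYB12OX (-0.23 and -0.30) and in pap1-D/tt4 against pap1-D (-0.23 and -0.35). After quantile normalization the RCA differences were -0.04, -0.11 and -0.08, none called. Those of PORB were -0.26 (adjusted p = 0.0414), -0.23 (adjusted p = 0.115) and -0.25 (adjusted p = 0.0793). Of the root markers PYK10 was called lower in MYB12OX/tt4 against MYB12OX (-0.55, adjusted p = 0.0404), with -0.30 in tt4 (adjusted p = 0.209). Of the flower markers ATA27 was higher in MYB12OX/tt4 against MYB12OX (1.67), and ROXY2 was lower in pap1-D against Col-0 (-1.33) and higher in pap1-D/tt4 against pap1-D (1.22). Leaving out 1 array lost every one of these marker calls with 1 to 5 of 6 arrays, except those of ROXY2 and that of PORB in tt4. With the listing covariate RCA turned to 0.11 in tt4 and ROXY2 to -0.51 in pap1-D/tt4, and of these marker calls only that of ROXY2 in pap1-D against Col-0 remained (-2.20, adjusted p = 0.0332). What part these markers have in the differences of the 5 genes was not tested.

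For each gene the 3 genes with the most similar pattern were taken by Pearson's r over the 24 arrays among 8121 single-gene probe sets. This is a description only, since the arrays share genotypes and the listing order. GSTU18 had the closest, with AT5G57345 (0.98), AT5G13770 (0.98) and CaS (0.97), the calcium-sensing protein of the thylakoid. Over deviations from the genotype means, which leave only differences between arrays of a genotype, their r was 0.78, 0.64 and 0.67. For GSTU16 they were AT5G47610 (0.95), the cytochrome P450 gene CYP71B26 (0.94) and AT1G72030 (0.94), with 0.62, 0.35 and 0.55 over deviations. GSTU20 was closest to AT4G02850 (0.90), the vacuolar fructose transporter SWEET17 (0.89) and AT4G16980 (0.89), with 0.64, 0.48 and 0.38 over deviations. GSTU27 was closest to AT5G45650 (0.89), AT1G28610 (0.89) and AOP1 (0.89), a dioxygenase of the family that modifies glucosinolates, with 0.32, 0.21 and 0.32 over deviations. The dim GSTU26 reached 0.75 with AT5G10730, 0.74 with AT3G15460 and 0.73 with AT3G48490.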

How the data were processed

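Total RNA from 24 samples was measured on ATH1 arrays. Per the submitters' processing notes, the authors used MAS5, and what they deposited is a table of array intensities on a linear scale, 1 for each probe set, without detection calls. No source used here gives the software version. Median signals were 163.9 to 176.7 per array, 59.5% to 62.2% of probe sets were above 85.2, and arrays of a genotype correlated with a mean r of 0.98 to 0.992. No pair of arrays shared a signal. The number of arrays limits the precision.

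Of 22810 probe sets, 64 controls were left out. Probe sets above 85.2 (overall median signal 170.4 divided by 2) on at least 3 of 24 arrays were tested (14935 of 22746). An offset of 42.6 (the median divided by 4) was added before log2, which understates changes of dim genes. One limma fit (limma 3.58.1, R 4.3.3) with a mean per genotype and 16 residual degrees of freedom, eBayes with an intensity trend, gave 12 two-sided contrasts, each adjusted by the Benjamini-Hochberg method over all 14935 probe sets. Adjusted p-values come from this fit unless the text names another fit, and 95% intervals are unadjusted. The fit was tested on simulated data.

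Names came from the platform annotation (13513 probe sets with 1 gene, 503 with several, 8730 with none), updated through RefSeq assembly TAIR10.1, which 13436 matched and which also gave the gene order. Coordinates are left out because the array's build is not stated. The transcripts of MYB12, PAP1 and CHS, not named in that annotation, were not analysed here. Named are the 5 genes, up to 4 tested genes per list (the largest differences in tt4), up to 2 neighbours on either side, the 3 most similar genes and tissue markers. The members and lists were chosen with earlier results of these data known.

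Replicate numbers from the labels were checked as pairs by the correlation of deviations from genotype means. In 84 same-number pairs r ran from -0.136 to 0.56 (median 0.085). Every r was over 0.1 in 6 of 28 genotype pairs. The 3 of these that are compared here are MYB12OX/tt4 with tt4, pap1-D/tt4 with pap1-D and WOX1-2 with WOX1-1. The others, pap1-D with MYB12OX and WOX1-1 and WOX1-2 with pap1-D, are not compared here. The reported fit has no term for the replicate number, so its p-values do not use any pairing. Replicate number enters as such only in the alternative fit with a block. Within a genotype the listing place rises with that number, so the listing covariate fits a straight line over it. For the same reason the check of correlations cannot tell pairing from a shared trend over the listing. Alternatives covered the offset, filter, scaling, trend, array weights, replicate block, listing place, samples in the fit and each array left out.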

Additional observations from a re-analysis of the deposited data

How the results depend on the processing

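The 18 called differences of the 5 genes all kept their call with an offset of 1 or the median divided by 2, no filter, quantile normalization, no intensity trend, array weights or the replicate number as a block, and also with the stricter filter (above the overall median on 3 arrays), which leaves out GSTU26. In fits of only the genotypes compared, 2 lost it, GSTU18 in WOX1-1 against Col-0 (adjusted p = 0.0504) and GSTU16 in pap1-D/tt4 against pap1-D (adjusted p = 0.0557), which test with fewer arrays. Leaving out 1 array lost a call 8 times, in the 5 differences named in the report, and turned none of the 18. With listing place as a covariate 0 of 18 were called and 23 of all 60 differences changed sign. In GSTU18 these were 0.12 in MYB12OX against Col-0, 0.25 in pap1-D against Col-0, 0.20 in WOX1-1 against Col-0, 0.30 in WOX1-2 against Col-0, 0.41 in tt4 against Col-0, 0.16 in MYB12OX/tt4 against MYB12OX, 0.033 in pap1-D/tt4 against pap1-D, -0.14 in MYB12OX/tt4 against tt4, -0.13 in pap1-D/tt4 against tt4, 0.099 in WOX1-2 against WOX1-1, -0.26 in the MYB12OX interaction and -0.38 in the pap1-D interaction. In GSTU20 they were 0.78 in pap1-D against Col-0, 1.06 in WOX1-1 against Col-0, 1.60 in WOX1-2 against Col-0, 1.76 in tt4 against Col-0, 0.98 in MYB12OX/tt4 against MYB12OX, 0.91 in pap1-D/tt4 against pap1-D, -0.20 in MYB12OX/tt4 against tt4, -0.072 in pap1-D/tt4 against tt4, -0.78 in the MYB12OX interaction and -0.85 in the pap1-D interaction. In GSTU26 it was 0.003 in MYB12OX/tt4 against tt4. Among the other genes named, of whose 36 called differences 23 lost their call in the same direction, 1 (ROXY2 in pap1-D against Col-0) held and 12 turned, GR was 0.50 in WOX1-2 against Col-0, 1.01 in tt4 against Col-0 and 0.45 in MYB12OX/tt4 against MYB12OX, GR1 was 0.061 in WOX1-2 against Col-0, 0.27 in tt4 against Col-0 and 0.038 in pap1-D/tt4 against pap1-D, ORA47 was 4.58 in tt4 against Col-0 and 2.05 in pap1-D/tt4 against pap1-D, RCA was 0.11 in tt4 against Col-0, AT1G10340 was -2.48 in tt4 against Col-0, AT1G10350 was 1.06 in tt4 against Col-0 and ROXY2 was -0.51 in pap1-D/tt4 against pap1-D. For these turns the cause was not tested.

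The counts of all probe sets moved more. With an offset of 1, 21 were called in the MYB12OX interaction, against 40 as reported, and the count was 11 with no filter, 63 with quantile normalization and 9 with no intensity trend. With array weights, 353 were called in MYB12OX against Col-0, 103 in MYB12OX/tt4 against tt4, 11 in WOX1-2 against WOX1-1 and 137 in the MYB12OX interaction. With the replicate number as a block, 338 were called in MYB12OX against Col-0, 97 in MYB12OX/tt4 against tt4, 12 in WOX1-2 against WOX1-1, 184 in the MYB12OX interaction and 391 in the pap1-D interaction. With listing place as a covariate, 24 were called in MYB12OX against Col-0, 163 in pap1-D against Col-0, 139 in WOX1-1 against Col-0, 103 in WOX1-2 against Col-0, 84 in tt4 against Col-0, 45 in MYB12OX/tt4 against MYB12OX, 136 in pap1-D/tt4 against pap1-D, 144 in MYB12OX/tt4 against tt4, 80 in pap1-D/tt4 against tt4, 3 in WOX1-2 against WOX1-1 and 20 in the pap1-D interaction. With only the genotypes compared in the fit, 82 were called in MYB12OX against Col-0, 935 in pap1-D against Col-0, 1550 in pap1-D/tt4 against pap1-D, 9 in MYB12OX/tt4 against tt4, 14 in pap1-D/tt4 against tt4 and 60 in the pap1-D interaction. Leaving out 1 array at a time, the lowest and highest counts were 2 and 86 in the MYB12OX interaction, 34 and 211 in MYB12OX against Col-0, 1571 and 2455 in MYB12OX/tt4 against MYB12OX, 12 and 26 in MYB12OX/tt4 against tt4, 1597 and 2308 in WOX1-1 against Col-0, 53 and 254 in the pap1-D interaction, 716 and 1378 in pap1-D against Col-0 and 1723 and 2664 in pap1-D/tt4 against pap1-D. Col-0 replicate 1 gave the lowest count in MYB12OX (34 of 150), pap1-D (716 of 1508) and WOX1-1 (1597 of 2504) against Col-0, MYB12OX/tt4 replicate 3 that in MYB12OX/tt4 against MYB12OX (1571 of 2603), and pap1-D replicate 1 the one in pap1-D/tt4 against pap1-D (1723 of 2824). The replicate number as a block changed no call of the 5 genes. The block was fitted in all 12 contrasts. In 3 of the genotype pairs compared, named with the processing, every correlation in the check was over 0.1. The check cannot tell pairing from a shared trend over the listing. Under the other alternatives, of these 36 called differences 1 was lost with an offset of 1, 8 with no filter, 6 with quantile normalization, 3 with no intensity trend, 1 with array weights and 8 in fits of only the genotypes compared, all in the same direction. With quantile normalization 2 uncalled GSTU26 differences turned (0.025 in WOX1-2 against WOX1-1 and -0.064 in the pap1-D interaction). With array weights 4 uncalled differences turned, GSTU20 in MYB12OX against Col-0 (-0.024), GSTU27 in pap1-D against Col-0 (0.006) and GSTU26 in WOX1-2 against WOX1-1 (0.045) and in the pap1-D interaction (-0.006). Uncalled differences that changed sign on leaving out an array had these ranges. GSTU16 had -0.003 to 0.19 in the MYB12OX interaction, -0.18 to 0.013 in MYB12OX/tt4 against tt4 and -0.16 to 0.034 in pap1-D/tt4 against tt4. GSTU18 had -0.016 to 0.12 in pap1-D/tt4 against tt4. GSTU20 had -0.032 to 0.36 in MYB12OX against Col-0, -0.32 to 0.038 in WOX1-2 against Col-0, -0.04 to 0.21 in WOX1-2 against WOX1-1 and -0.25 to 0.11 in pap1-D against Col-0. GSTU26 had -0.092 to 0.25 in the MYB12OX interaction, -0.33 to 0.013 in MYB12OX/tt4 against MYB12OX, -0.24 to 0.10 in MYB12OX/tt4 against tt4, -0.14 to 0.066 in WOX1-2 against WOX1-1 and -0.067 to 0.14 in the pap1-D interaction. GSTU27 had -0.051 to 0.018 in MYB12OX against Col-0, -0.004 to 0.20 in MYB12OX/tt4 against tt4, -0.14 to 0.034 in the pap1-D interaction, -0.061 to 0.068 in pap1-D against Col-0 and -0.14 to 0.022 in pap1-D/tt4 against tt4. No detection calls were used, so GSTU26 and the dim tau genes may lie at background.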
